A study of Rattus norvegicus with 6 samples.

Results

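The enzymes that turn arachidonic acid into prostaglandins and leukotrienes, with the microsomal epoxide hydrolase, were measured in brainstem cell cultures from 2 rat strains, the spontaneously hypertensive rat (SHR) and the Wistar Kyoto rat (WKY). The members were the probes whose only platform symbol is one of Pla2g4a, Ptgs1, Ptgs2, Ptges, Ptgds, Ptgis, Alox5, Alox15, Ltc4s or Ephx1. All 10 genes had a probe, and their 13 probes were part of 16753 probes with a single symbol, which cover 12082 tested genes. SHR is an inbred rat strain that develops high blood pressure, and WKY is the normotensive strain it is compared with. Each strain had 3 single-colour CodeLink arrays, and the RNA of an array came from cells of 3 pooled dishes, with no treatment named. Neither the age and sex of the animals nor the culture days are given in the sources used here, and nothing says that the pools were independent cultures, so each p-value covers the spread from pool to pool, which may be technical. The comparison asks whether the transcripts of these enzymes differ by strain.

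Eicosanoid synthesis starts when cytosolic phospholipase A2 frees arachidonic acid from membrane lipids. The cyclooxygenases convert it to prostaglandin H2, from which terminal synthases make prostaglandin D2, prostaglandin E2, prostacyclin or thromboxane, and the lipoxygenases open the branch to leukotrienes and hydroxy fatty acids. In the brain, prostaglandin D2 is known as a promoter of sleep and prostaglandin E2 as a mediator of fever, and the leukotriene enzymes are known mainly from microglia, macrophages and other myeloid cells. Epoxide hydrolases convert epoxides, among them those that cytochrome P450 enzymes make from arachidonic acid, into diols.

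Markers showed what kind of culture was measured. All 7 microglia and macrophage markers and 5 of 6 astrocyte markers lay above the dimmest 25% of probes (mean log2 intensity 7.18, or 145 intensity units), a limit set on these data and not a detection limit. So did all measured markers of oligodendrocytes (5), meningeal fibroblasts (6) and endothelial cells (5), and 3 of 5 choroid plexus markers. Of the position genes listed, 2 of 8 for hindbrain and 1 of 4 for forebrain were measured. The hindbrain genes Hoxa2 (1427 to 2465 intensity units) and Hoxb4 (933 to 1418) were above that limit as well, and the forebrain gene Emx2 was below it (31.7 to 120). Of 6 neuronal markers 3 were measured: Stmn2, a microtubule regulator of growing neurites, read 9529 to 14009, Nefl, a neurofilament gene, read 650 to 784, and Snap25, a synaptic protein gene, was among the dimmest probes. The array WKY 1 stood apart in interferon-stimulated genes: the mean of 9 of them, centred on the 6 arrays, was -1.89 there and lay between -0.50 and 1.11 on the others. Values without WKY 1 are given below for Ptgs1, Ptgs2, Ptgds, Ptges, Ephx1, Ltb4r, Ephx2 and Cyp2c11.

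Promoter windows of the members described at most length are shown to set the isozymes and the alternative starts beside each other, and no measurement here bears on them directly. RefSeq (GRCr8) held windows for 8 of the 10 genes, and not for Ptgis and Alox15. The 250 bases before the annotated start were searched on both strands for the core of the TATA box (TATAAA), for the box read by nuclear factor Y (CCAAT), for the GC box known from Sp1 (GGGCGG), for the E-box (CACGTG) and for the site type of the factor AP-1 (TGANTCA), and capitals mark the matches. Ptgs1, the constitutive cyclooxygenase (chr3:39981169-39981418, plus strand), and Ptgs2, the inducible one (chr13:64713813-64714062, plus strand), are set against Ptgds, prostaglandin D synthase (chr3:28682979-28683228, minus strand), and the windows of 2 Ephx1 starts (chr13:95275853-95276102, minus strand, and chr13:95263118-95263367, minus strand).
Ptgs1: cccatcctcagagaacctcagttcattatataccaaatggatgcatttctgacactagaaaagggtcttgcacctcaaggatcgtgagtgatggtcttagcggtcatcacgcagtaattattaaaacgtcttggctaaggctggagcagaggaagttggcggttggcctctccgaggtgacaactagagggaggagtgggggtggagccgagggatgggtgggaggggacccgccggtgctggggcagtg
Ptgs2: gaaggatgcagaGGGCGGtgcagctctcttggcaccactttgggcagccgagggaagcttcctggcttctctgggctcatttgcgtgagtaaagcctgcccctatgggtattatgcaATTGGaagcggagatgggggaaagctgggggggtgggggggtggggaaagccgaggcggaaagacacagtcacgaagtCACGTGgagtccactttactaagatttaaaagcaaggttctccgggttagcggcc
Ptgds: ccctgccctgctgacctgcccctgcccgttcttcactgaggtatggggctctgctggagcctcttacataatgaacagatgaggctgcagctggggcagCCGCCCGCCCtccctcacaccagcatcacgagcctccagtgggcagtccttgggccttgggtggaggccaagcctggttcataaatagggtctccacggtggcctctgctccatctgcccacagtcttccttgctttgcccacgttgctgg
Ephx1, start 1: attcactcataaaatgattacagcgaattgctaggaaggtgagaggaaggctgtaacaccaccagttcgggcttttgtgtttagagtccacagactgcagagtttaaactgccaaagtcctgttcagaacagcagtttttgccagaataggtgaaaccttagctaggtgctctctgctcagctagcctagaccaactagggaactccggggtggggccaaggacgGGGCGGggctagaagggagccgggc
Ephx1, start 2: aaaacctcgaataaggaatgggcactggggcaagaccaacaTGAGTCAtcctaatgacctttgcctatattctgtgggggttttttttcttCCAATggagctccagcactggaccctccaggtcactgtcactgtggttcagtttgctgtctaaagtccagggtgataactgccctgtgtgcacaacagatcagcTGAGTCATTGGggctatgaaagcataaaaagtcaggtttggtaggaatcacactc
The Ptgs1 window held none of the 5 motifs, and the Ptgs2 window held a GC box, a nuclear factor Y box on the reverse strand and an E-box. The Ptgds window held the GC box at 2 overlapping places on the reverse strand. At Ephx1 the window of start 1 held a GC box, and that of start 2 held 2 AP-1 type sites and 2 nuclear factor Y boxes, with 1 of each overlapping. Among 33469 windows of this length, 12.9% held the TATA core, 34% the nuclear factor Y box, 30.5% the GC box, 5.59% the E-box and 6.34% the AP-1 type site, and a match describes the letters of a window, not a binding site. Pla2g4a and Ptgs2 lie close together on chromosome 13, with 0 annotated protein-coding genes starting between them.

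None of the 13 probes passed the test of the strain difference across all probes. With limma and Benjamini-Hochberg adjustment over 33249 probes, 0 members passed an adjusted p of 0.05, where 0% of all probes passed, and the smallest adjusted p of a member was 0.693. At an unadjusted p under 0.05 there were 0 members, against 7.65% of all probes (3.65% higher and 4.01% lower in SHR). The 3 SHR values did not lie wholly to one side of the 3 WKY values at any member probe, while 13.4% of probes with 6 values were separated in this way (6.07% higher and 7.3% lower in SHR). With 1 array left out such separation is more frequent, and held for 19.4% (without SHR 3) to 31.1% (without WKY 1) of all probes measured on the other 5 arrays, 22.3% without SHR 1, 29.8% without SHR 2 and 20.2% without WKY 3. Separations of single members in those fits, given below, are to be read against these shares. With 3 arrays against 3 an exact permutation test cannot go below 0.10, and no member reached that value. Of the 13 probes, 9 were brighter in SHR on average and 4 in WKY, beside 16104 and 17145 of all tested probes. Counted by gene, with the brightest probe for each, 7 were brighter in SHR and 3 in WKY, beside 6014 and 6068 of all named genes. At the brightest probe of each gene the median difference (log2 intensity, SHR minus WKY) was 0.05, beside -0.0012 over all named genes. It was 0.23 without SHR 2 and between 0.07 and 0.16 without any other single array. A p above the threshold does not show equal levels, and a 95% interval is given with the difference of each member.

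**Figure D1:**
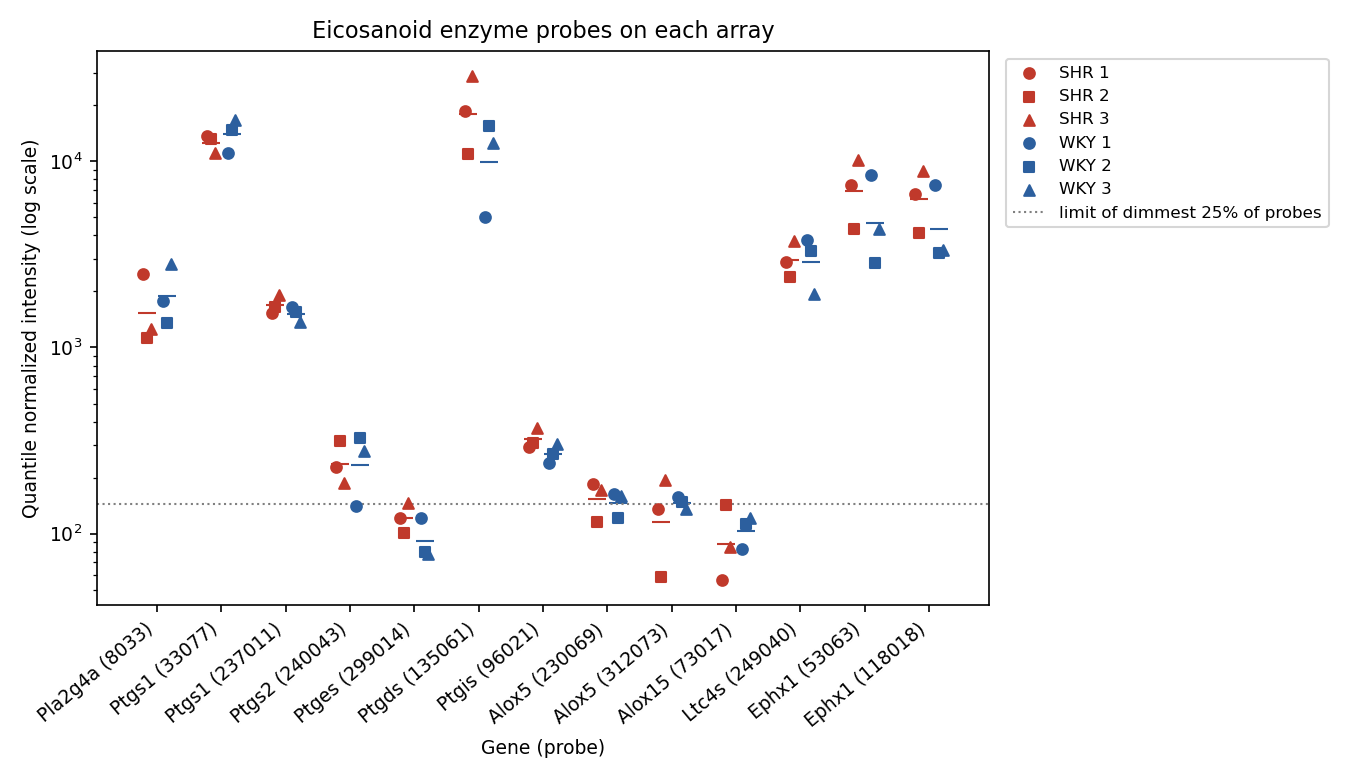
Quantile normalized intensity (log axis) of the 13 member probes on each of the 6 arrays, SHR in red and WKY in blue, with symbols for the pools and bars at the means of the log values. SHR and WKY points overlap at every probe, and 3 probes (Ptges, Alox15 and Alox5 probe 312073) have their mean below the dotted limit of the dimmest 25% of probes.

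Pla2g4a encodes cytosolic phospholipase A2, which frees arachidonic acid. Its probe measured 2489, 1127 and 1260 intensity units in SHR 1 to 3 and 1776, 1348 and 2798 in WKY 1 to 3. The highest array was WKY 3 and the lowest SHR 2, and SHR 1 lay above 2 of the WKY arrays. The log2 signal was 10.57 ± 0.62 for SHR (SD, n = 3), against 10.88 ± 0.53 for WKY (SD, n = 3), a difference of -0.31 ± 0.39 (SE) with a 95% interval from -1.24 to 0.63 (limma adjusted p = 0.850). Without SHR 1 the difference was -0.66 ± 0.33 (limma adjusted p = 0.833), with no overlap of the strains. Without WKY 3 it was -0.02, so its size depended on single arrays.

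Ptgs1, the cyclooxygenase that most tissues make constitutively, had 2 probes that pointed in opposite directions. Probe 33077 measured 13702, 13164 and 11090 on the SHR arrays, against 11085, 14733 and 16771 on the WKY arrays. Probe 237011 measured 1532, 1641 and 1906 on the SHR arrays, against 1648, 1548 and 1368 on the WKY arrays. WKY 3 was the highest array at the former and the lowest at the latter, and the strains overlapped at both. The differences were -0.15 ± 0.19 (95% interval -0.62 to 0.31, limma adjusted p = 0.851) and 0.15 ± 0.15 (-0.20 to 0.51, limma adjusted p = 0.801). Across the 6 arrays the probes ran against each other, with Pearson r = -0.886 (exact permutation p = 0.0222, 0.0333 adjusted over 3 probe pairs) and Spearman rho = -0.886 (exact permutation p = 0.0333, 0.05 adjusted). Without WKY 1 and WKY 3, the arrays farthest from the median of the former probe, r was -0.958. Without WKY 1, SHR and WKY did not overlap at probe 33077 (-0.32 ± 0.17).

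Ptgs2, the cyclooxygenase known to be induced by cytokines and by neuronal activity, measured 226.6, 315.5 and 186.2 on the SHR arrays, against 141.0, 326.5 and 277.8 on the WKY arrays. The arrays of each strain spread over more than the strains differed, with WKY 2 highest and WKY 1 lowest. The mean log2 signal was 7.89 ± 0.38 for SHR (SD, n = 3), against 7.87 ± 0.64 for WKY (SD, n = 3), a difference of 0.02 ± 0.36 with an interval from -0.85 to 0.89 (limma adjusted p = 0.992). The direction turned in some settings, to -0.35 without WKY 1 and to -0.02 with median-centred per-sample intensities. As a ratio of SHR to WKY the interval ran from 0.56 to 1.85.

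Ptgds, which makes prostaglandin D2 and is known from oligodendrocytes, the leptomeninges and the choroid plexus, had the largest mean difference of the members. It measured 18555, 10965 and 28747 on the SHR arrays, against 5012, 15501 and 12620 on the WKY arrays. SHR 3 was the highest array and WKY 1 the lowest, and SHR 2 lay below WKY 2 and WKY 3. The log2 signal was 14.14 ± 0.70 for SHR (SD, n = 3), against 13.28 ± 0.87 for WKY (SD, n = 3), 1.81-fold higher on average in SHR, with an interval from 0.76-fold to 4.32-fold (difference 0.86 ± 0.52, limma adjusted p = 0.715). Without WKY 1 the difference was 0.37 ± 0.41 and without SHR 2 it was 1.22 ± 0.53 (limma adjusted p = 0.756 and 0.498), the latter with no overlap of the strains.

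Ptges, the microsomal prostaglandin E synthase that is induced together with Ptgs2 in inflammation, was dim. It measured 121.9, 101.2 and 146.3 on the SHR arrays, against 121.5, 79.5 and 77.95 on the WKY arrays. Of the 9 pairs of an SHR and a WKY array, SHR was higher in 8, with WKY 1 above SHR 2. The difference of 0.42 ± 0.23 (95% interval -0.14 to 0.98, limma adjusted p = 0.693) had the smallest p of the members. Without WKY 1 it was 0.63 ± 0.20 with an unadjusted p of 0.0212 and a limma adjusted p of 0.418, and the strains did not overlap. In that fit 10.8% of all probes had an unadjusted p under 0.05 (5.41% higher and 5.38% lower in SHR). With an offset of 50 before log2 the difference was 0.28, and with median-centred per-sample intensities 0.22 ± 0.23.

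Ptgis, prostacyclin synthase, makes the vasodilator prostacyclin. It measured 293.1, 308.0 and 370.6 on the SHR arrays, against 238.1, 269.3 and 304.6 on the WKY arrays, so that the WKY arrays lay lower apart from WKY 3, which was above SHR 1. The log2 signal was 8.33 ± 0.18 for SHR (SD, n = 3), against 8.07 ± 0.18 for WKY (SD, n = 3). The difference of 0.26 ± 0.16 had an interval from -0.13 to 0.64 (limma adjusted p = 0.716). The strains separated without SHR 1 (0.33 ± 0.18), without WKY 3 (0.35 ± 0.18) and in the unnormalized intensities (0.37 ± 0.19), where the median of all probes was itself 0.12 higher in SHR and 11.7% of probes were separated.

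The lipoxygenase probes lay near or under the limit of the dimmest 25%. Alox5, which starts leukotriene synthesis, measured 183.9, 115.1 and 170.7 on the SHR arrays, against 162.4, 120.9 and 159.6 on the WKY arrays at probe 230069. At probe 312073 it measured 135.9, 58.5 and 194.0 on the SHR arrays, against 156.7, 148.5 and 135.4 on the WKY arrays. SHR 2 was the lowest array at both probes and the strains overlapped. The differences were 0.07 ± 0.23 and -0.34 ± 0.42 (limma adjusted p = 0.947 and 0.845), with intervals from -0.48 to 0.62 and from -1.36 to 0.68. Without SHR 2 they became 0.28 and 0.15, and at probe 230069 the strains then did not overlap. The probes correlated at r = 0.656 (exact permutation p = 0.14, and 0.14 adjusted) and rho = 0.543 (exact permutation p = 0.297, and 0.297 adjusted), and r was -0.05 without SHR 2 and WKY 2, so this relation rested on those arrays.

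Alox15, a lipoxygenase that makes hydroxy fatty acids, measured 56.3, 143.1 and 84.6 on the SHR arrays, against 82.5, 112.3 and 120.7 on the WKY arrays. SHR held both the highest array, SHR 2, and the lowest, SHR 1. The difference of -0.24 ± 0.35 (interval -1.09 to 0.61, limma adjusted p = 0.872) was 0.08 without SHR 1. Ltc4s, which joins leukotriene A4 to glutathione and opens the cysteinyl leukotriene branch, measured 2884, 2390 and 3731 on the SHR arrays, against 3798, 3289 and 1937 on the WKY arrays. WKY 1 was highest and WKY 3 lowest, so the SHR arrays lay within the WKY range. The difference of 0.03 ± 0.30 (interval -0.69 to 0.75, limma adjusted p = 0.984) ranged from -0.26 to 0.23 when single arrays were left out.

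Ephx1, the microsomal epoxide hydrolase, varied widely between pools of the same strain, and its 2 probes varied together. Probe 53063 measured 7492, 4341 and 10153 on the SHR arrays, against 8411, 2843 and 4312 on the WKY arrays. Probe 118018 measured 6706, 4106 and 8891 on the SHR arrays, against 7477, 3205 and 3358 on the WKY arrays. SHR 3, WKY 1 and SHR 1 were the high arrays at both probes, in this order, and SHR 2, WKY 3 and WKY 2 the low ones. The probes ranked the 6 arrays identically, with rho = 1.0 (exact permutation p = 0.00278, 0.00834 adjusted) and r = 0.971 (exact permutation p = 0.00694, 0.0208 adjusted), and r was 0.978 without SHR 3 and WKY 2. The strain differences were 0.56 ± 0.47 and 0.54 ± 0.42 (limma adjusted p = 0.777 and 0.762), with intervals from -0.58 to 1.70 and from -0.48 to 1.55. Without WKY 1 they were 0.98 ± 0.40 and 0.93 ± 0.34, with unadjusted p of 0.0556 and 0.0371 and limma adjusted p of 0.470 and 0.441, and the strains did not overlap. Without WKY 2 they were 0.20 and 0.32.

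**Figure D2:**
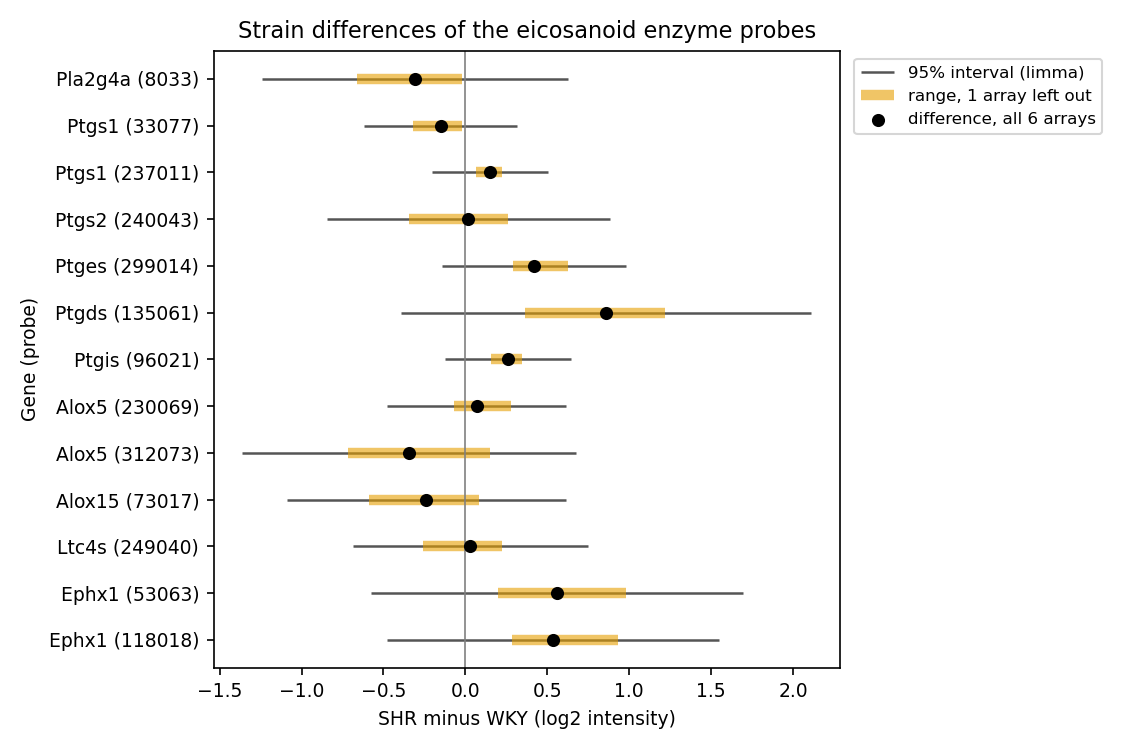
SHR minus WKY difference in log2 intensity (horizontal axis) of each member probe (vertical axis), with limma's 95% interval as a thin line and the range over fits without 1 array as a broad bar. Every 95% interval crosses 0, with Ptgds reaching from -0.39 to 2.11.

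The array scores of marker lists, means of log2 values centred on each gene's mean, moved with some members. The 3 arrays where Ephx1 was high, SHR 3, WKY 1 and SHR 1, had the lowest interferon response scores (-0.50, -1.89 and -0.33), and SHR 2, WKY 3 and WKY 2 had the highest (0.61, 1.11 and 0.99). This list of 11 genes, of which 9 were measured, was added after the values were seen. Ptgs2 was lowest on WKY 1, where the interferon score was lowest, and its 3 highest arrays were the 3 with scores above 0. Ptges and Alox5 probe 230069, like Ephx1, were higher on SHR 3, WKY 1 and SHR 1 than on every other array. At Alox5 the margin was narrow (162.4 on WKY 1 and 159.6 on WKY 3). Alox15 was lower on SHR 3, WKY 1 and SHR 1 than elsewhere, and the remaining member probes were not split in this way. The share of all probes split in this way was not counted, so the number of members split has nothing to be read against. The part of the interferon list in the members' values was not tested.

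Meningeal fibroblast scores were 0.03, 0.86 and 0.84 on the SHR arrays, against -0.48, -0.43 and -0.82 on the WKY arrays, with 4 of 6 measured genes higher in SHR at an unadjusted p under 0.05, against 3.43% of all named genes. Choroid plexus scores were 0.45, 0.46 and 0.77 on the SHR arrays, against -0.86, -0.64 and -0.18 on the WKY arrays, with 3 of 5 genes higher at an unadjusted p under 0.05. Oligodendrocyte scores were -0.96, 0.49 and -1.01 on the SHR arrays, against 0.92, 0.48 and 0.08 on the WKY arrays, with 0 of 5 genes above 0 and 1 lower at an unadjusted p under 0.05. Ptgds was lowest on WKY 1, the array with the lowest choroid plexus score and the highest oligodendrocyte score, and highest on SHR 3, the array with the highest choroid plexus score and the lowest oligodendrocyte score. SHR 2, with the highest meningeal fibroblast score and a choroid plexus score above 0, had less Ptgds than WKY 2 and WKY 3. Its oligodendrocyte score was among the high ones. From array to array Ptgds ran in the reverse order of the oligodendrocyte scores, except that WKY 2 had more Ptgds than WKY 3. The part of these cell types in the Ptgds values was not tested. In such mixed cultures fewer cells of a type and less RNA per cell cannot be told apart.

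Microglia and macrophage scores, which bear on Ptgs1, Alox5 and Ltc4s, spanned -0.08 to -0.02 in SHR and -0.04 to 0.17 in WKY, with 0 of 7 genes at an unadjusted p under 0.05. Of the 7 genes, Aif1, Cd68, Csf1r and Tyrobp were very bright and varied little (31708 to 40310). Itgam ran from 2397 to 6066 and Ptprc from 1016 to 1723, both highest on WKY 3, while Cx3cr1 ran from 915.5 to 1449 and was highest on SHR 3. Of the members, Ptgs1 probe 33077 was highest on WKY 3, but Ptgs1 probe 237011 and Ltc4s were lowest there. The part of these 7 genes in the members' values was not tested. Astrocyte scores spanned -0.14 to 0.14 in SHR and -0.11 to 0.21 in WKY, with 1 of 6 genes, Aldh1l1, lower at an unadjusted p under 0.05 (-0.45 ± 0.16, limma adjusted p = 0.610). Endothelial scores spanned -0.10 to 0.14 and -0.18 to 0.10, and 0 of 5 genes reached an unadjusted p under 0.05. For mast cells, another known source of prostaglandin D2 and leukotriene C4, 5 of 6 markers were measured. Hdc (2513 to 7847), Tpsab1 (267 to 531) and Kit (282 to 460) lay above the limit, and Ms4a2 and Fcer1a, genes of their IgE receptor, were among the dimmest probes. Mast cell scores were 0.01, -0.51 and 0.50 for SHR 1 to 3 and 0.04, -0.23 and 0.20 for WKY 1 to 3. The part of mast cells in the members' values was not tested.

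**Figure D3:**
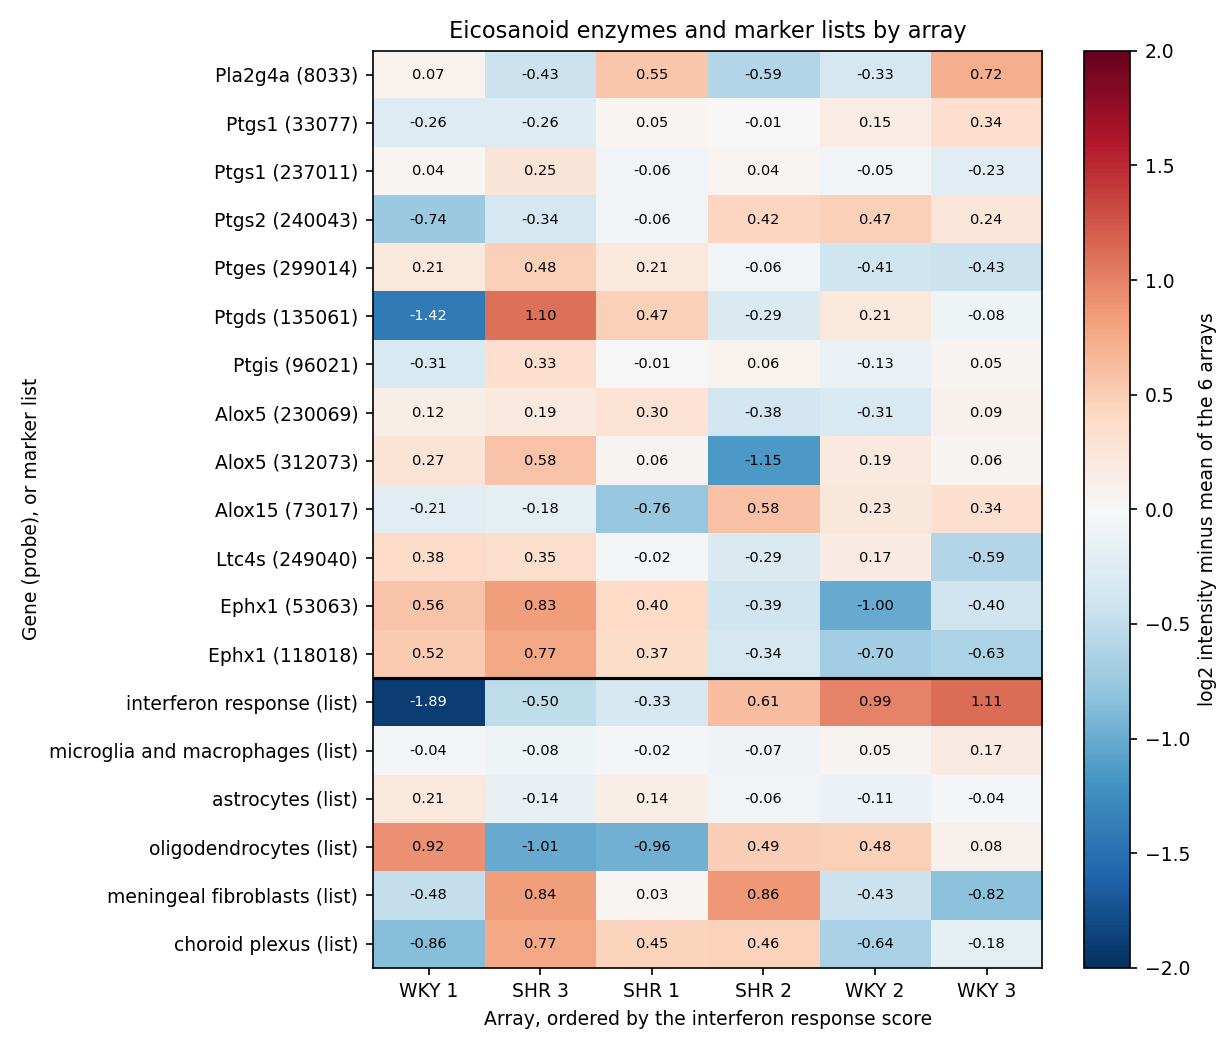
Log2 intensity of each member probe, and score of each marker list below the black line, minus its mean over the 6 arrays (colour and printed value), with arrays ordered by the interferon response score. Both Ephx1 probes and Ptges are positive on the 3 arrays with negative interferon scores and negative on the other 3. Ptgs2 and Alox15 run the other way, and Ptgds is lowest on WKY 1.

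Other genes of eicosanoid metabolism were taken from a list of 62 genes by function, 55 of which had a tested probe. At the brightest probe 0 passed the adjusted threshold, and 4 were higher and 1 lower in SHR at an unadjusted p under 0.05. That is 9.09% of the list, beside 6.84% of all 12082 named genes, of which 3.43% were higher and 3.41% lower. The strains did not overlap at 7 of 53 genes with 6 values (13.2%), against 13.9% of all such named genes. The median difference was -0.02, and 27 genes lay above 0 and 28 below. The number at an unadjusted p under 0.05 was 3 without SHR 1, 8 without WKY 1 and 8 without WKY 2, where 5%, 9.65% and 5.91% of all named genes had such a p.

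The leukotriene branch held the gene of the list with the smallest p. Lta4h, whose product makes leukotriene B4, measured 183.6, 151.2 and 232.9 on the SHR arrays, against 93.0, 103.1 and 103.6 on the WKY arrays, with no overlap. The difference was 0.90 ± 0.19 with an interval from 0.45 to 1.35 (unadjusted p = 0.00234, limma adjusted p = 0.396), 0.74 to 1.05 without single arrays, and the probe was among the dimmest 25%. The strains also did not overlap at Dpep2, a dipeptidase that converts leukotriene D4, with 1287, 1253 and 1311 on the SHR arrays, against 1963, 1491 and 1483 on the WKY arrays (-0.35 ± 0.15, limma adjusted p = 0.655). Alox5ap, the protein that presents arachidonic acid to 5-lipoxygenase, gave -0.14 ± 0.21 and 0.06 ± 0.28 at its probes. The leukotriene B4 receptor genes Ltb4r (-0.39 ± 0.25) and Ltb4r2 (-0.55 ± 0.27) did not pass (limma adjusted p = 0.725 and 0.678). Without WKY 1 the difference of Ltb4r was -0.66 ± 0.17 (unadjusted p = 0.0093, limma adjusted p = 0.387). It was 1 of 8 genes of the list with an unadjusted p under 0.05 in that fit, where 9.65% of all named genes had such a p.

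On the epoxide side, Ephx2, the soluble epoxide hydrolase, measured 5183, 4104 and 4158 on the SHR arrays, against 488.4, 2122 and 1335 on the WKY arrays, with no overlap. Its difference of 2.00 ± 0.51 had an interval from 0.76 to 3.24 and did not pass either (limma adjusted p = 0.527). Without WKY 1, its lowest array, the difference was 1.40 ± 0.25 (limma adjusted p = 0.332). Cyp2c11, an epoxygenase, measured 969.6, 428.9 and 1965 on the SHR arrays, against 661.6, 271.6 and 313.1 on the WKY arrays (1.29 ± 0.60, limma adjusted p = 0.670), and was 0.75 without SHR 3 and 1.68 ± 0.62 without WKY 1 (unadjusted p = 0.04, limma adjusted p = 0.447). Of the 13 measured cytochrome P450 and hydrolase genes 1, Ephx2, had an unadjusted p under 0.05. The array order of Ephx1, with WKY 1 among the high arrays, was not that of Ephx2, where WKY 1 was lowest.

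In prostanoid synthesis 1 of 6 genes, and in arachidonic acid release 1 of 7, had an unadjusted p under 0.05, in opposite directions. Cbr1, a carbonyl reductase that can convert prostaglandin E2, measured 157.6, 374.3 and 181.5 on the SHR arrays, against 367.7, 484.3 and 449.3 on the WKY arrays, and only SHR 2 reached the WKY range (-0.97 ± 0.34, unadjusted p = 0.0268, limma adjusted p = 0.587). Pla2g1b, a secreted phospholipase A2, was among the dimmest probes and differed by 0.76 ± 0.23 (unadjusted p = 0.0152, limma adjusted p = 0.569). Pla2g10, another secreted one, gave -0.24 ± 0.19. Hpgds, the prostaglandin D synthase of blood-derived cells, gave -0.13 ± 0.18, Tbxas1, thromboxane synthase, 0.16 ± 0.14 and Ptges3, the cytosolic prostaglandin E synthase, 0.21 ± 0.15. None of these last 4 reached an unadjusted p of 0.05. A second Tbxas1 probe, among the dimmest and with 2 WKY values, gave -0.52 ± 0.52.

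Of 9 prostanoid receptor genes, 1 had an unadjusted p under 0.05. Ptgdr, the prostaglandin D2 receptor that acts through cyclic AMP, measured 153.9, 149.5 and 109.3 on the SHR arrays, against 102.2, 56.7 and 81.5 on the WKY arrays, with no overlap but among the dimmest probes. Its difference was 0.80 ± 0.26 (interval 0.18 to 1.42, unadjusted p = 0.0188, limma adjusted p = 0.573). Ptgdr2, the other prostaglandin D2 receptor, gave -0.33 ± 0.23. The prostaglandin E2 receptor genes gave -0.09 ± 0.13 for Ptger1, -0.08 ± 0.27 for Ptger2, 0.44 ± 0.46 for Ptger3 and -0.54 ± 0.34 for Ptger4. The receptors of prostacyclin (Ptgir, -0.02 ± 0.31), prostaglandin F2α (Ptgfr, 0.21 ± 0.31) and thromboxane (Tbxa2r, 0.12 ± 0.15) differed by less than their errors. Ptger2, Ptger3, Ptgfr and Tbxa2r each had a second, dimmer probe. These gave 0.165 ± 0.364, -0.026 ± 0.336, -0.062 ± 0.389 and 0.125 ± 0.35, opposite in sign to the first probe except at Tbxa2r. Among transport and breakdown genes 0 of 6 had an unadjusted p under 0.05. Abcc4, an exporter of prostaglandins, was separated (-0.30 ± 0.15, limma adjusted p = 0.689), Ptgfrn, an inhibitor of the prostaglandin F2α receptor, gave 0.33 ± 0.21 and Hpgd, which inactivates prostaglandins, -0.35 ± 0.47.

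**Figure D4:**
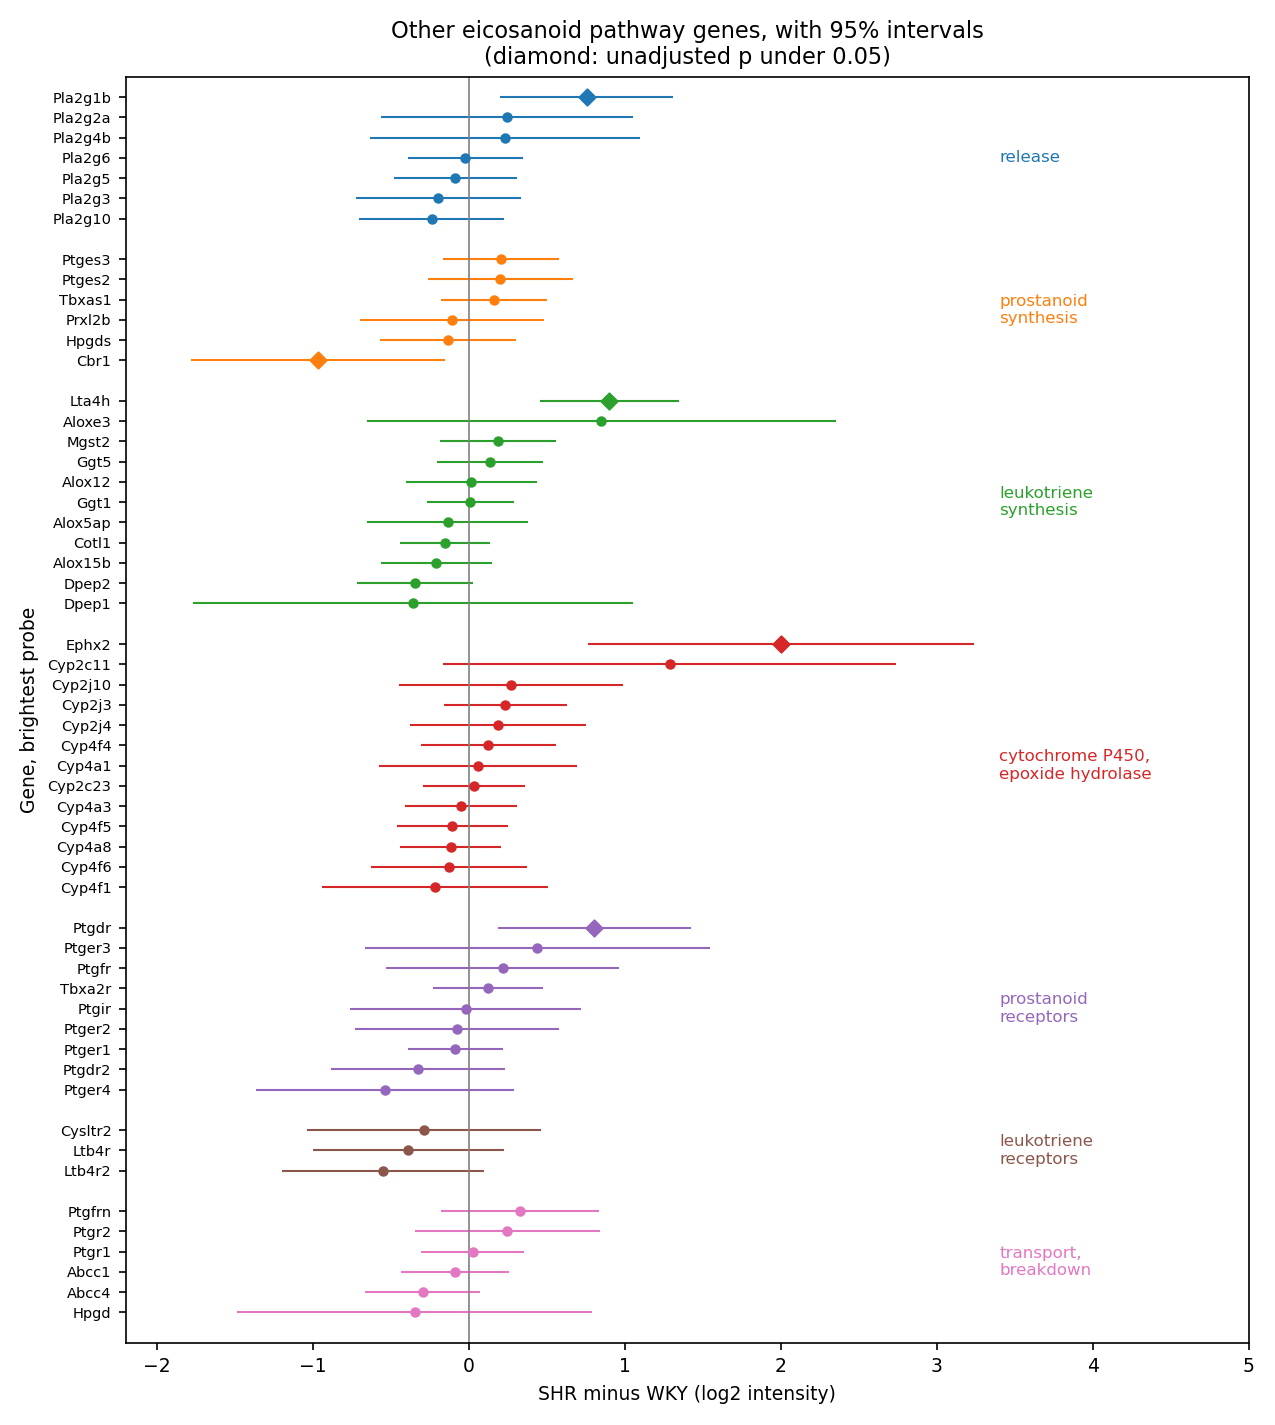
SHR minus WKY difference in log2 intensity with limma's 95% interval for the brightest probe of 55 other eicosanoid genes, grouped by role, with diamonds at unadjusted p under 0.05. The diamonds are Pla2g1b, Lta4h, Ephx2 and Ptgdr above 0 and Cbr1 below 0, and none passed after adjustment.

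Genes whose values followed those of the 3 members with the smallest p were sought among 11662 named genes with 6 values, by Pearson correlation over the 6 arrays as a description. The highest of so many correlations over 6 arrays are high by selection, and they were not tested. Enpp5 (r = 0.992), Sgcb (0.991) and Bbs7 (0.990) came closest to Ptges. Gbx1 (0.987), Tnfsf4 (0.981) and a gene listed as G4 (0.981) came closest to Ptgds, and Usp47 (0.991), Hexim2 (0.991) and Ccdc82 (0.985) to Ptgis. The differences of these 9 genes between the strains lay between 0.09 for Usp47 and 0.71 for Bbs7, and none passed (smallest limma adjusted p 0.689).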

How the data were processed

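Spot intensities were read with CodeLink Expression Analysis, had their background subtracted and were quantile normalized by the authors, per the labels. The sources used here name no software version. The deposited series table holds these intensities on a linear scale, with the same median of 520 units in each column for values above 0. The per-sample tables hold intensities not normalized between arrays, with medians of 439 to 572, and served as alternatives. A code of -9999 occurs in both, and no member spot held it.

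Values not above 0 were set to missing, log2 was taken with no offset, and a probe was tested if 1 strain had all 3 values and the other 2 or more (33249 of 33849). The test was limma 3.58.1 (lmFit and eBayes, R 4.3.3), two-sided, SHR minus WKY, adjusted over all probes by Benjamini-Hochberg, and the steps were tested on simulated data. The number of arrays limits the precision. Probes were named by the platform annotation's single symbol, and all 10 members' Entrez identifiers were found in the RefSeq gene table. Where a gene had several probes, the brightest mean over 6 arrays stood for it. Named genes were all members, in each role of the pathway list up to 2 genes of lowest p, further receptors and enzymes listed by name, and the 3 genes most like each of 3 members. The members and lists were chosen with earlier results of these data known. Figures were drawn with matplotlib 3.10.9.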

Additional observations from a re-analysis of the deposited data

How the results depend on the processing

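In 10 alternative settings, in 6 fits without an array and at an adjusted p of 0.10, 0 member probes passed. Over all probes limma called 17 after adding an offset, 5 among probes with values on all arrays, 18 once the dimmest 25% were dropped, 28 under a trended, robust prior, 10 under array weights, 13 where 0.10 was the adjusted limit, and 0 in each fit without an array. Member probes at an unadjusted p under 0.05 numbered 0 to 2 without single arrays (2 without WKY 1, where 10.8% of all probes had such a p). Those without overlap of the strains numbered 0 to 4, the 4 without WKY 1, beside 19.4% to 31.1% of all probes in those fits, and were 1 with unnormalized intensities (11.7% of all probes). Pathway genes at an unadjusted p under 0.05 numbered from 3 without SHR 1 (5% of all named genes) to 8 without WKY 1 (9.65%) or WKY 2 (5.91%). The share of all named genes was lowest without SHR 3 (4.21%) and highest without SHR 2 (10.6%), with 5 pathway genes in each. Without the dimmest probes the pathway genes numbered 3 (8.21%), where fewer genes are tested. A fit with a replicate block passed 0 probes and put 7 pathway genes at p under 0.05 (7.43% of all named genes). Arrays of one number deviated from their strain means with correlations of 0.0011, 0.22 and -0.13, and arrays of different numbers with -0.25 to 0.27. Deviations from a mean of 3 arrays are bound to each other, so these values cannot decide whether the numbers mark pairs. The labels do not say whether pools of one number were prepared together, and the main fit took no pairs.

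Of 13 member probes 8 kept their direction throughout, and of 25 named pathway genes 18 did. With median-centred intensities Ptgs2 turned to -0.02, Alox5 (230069) to -0.078 and Ptgfr to -0.023, and with array weights Ptgs2 to -0.11. With unnormalized intensities Alox5ap turned to 0.007, Hpgds to 0.033, Ptger1 to 0.025 and Ptger2 to 0.031. Without single arrays the ranges were -0.35 to 0.26 for Ptgs2, -0.069 to 0.276 and -0.72 to 0.15 for Alox5, -0.589 to 0.084 for Alox15 and -0.26 to 0.23 for Ltc4s. They were -0.319 to 0.058 for Alox5ap, -0.67 to 0.06 for Hpgd, -0.28 to 0.022 for Hpgds, -0.38 to 0.10 for Ptger2, -0.029 to 0.444 for Ptgfr and -0.26 to 0.22 for Ptgir. The causes were not tested. The signal of Ptges, Alox15, Alox5 (312073), Lta4h, Ptgdr and Pla2g1b lay in the dimmest 25%, which limits what their values can show. The alternative that takes the median over a gene's probes gives a difference and no count, and the median of the members was then 0.02 and that of the pathway genes 0.006. The members' median reached 0.23 without SHR 2, and the pathway genes' 0.12 with unnormalized intensities.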
